A study of Mus musculus with 282 samples.

Results

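Expression in the hypothalamus was compared between 25 classical inbred strains of mice. The strains were all those whose labelled name does not belong to the recombinant inbred sets AXB/BXA, BXD, BXH or CXB, and they supplied 71 of the 282 mice of the series. They were 129X1/SvJ, A/J, AKR/J, BALB/cJ, BUB/BnJ, C3H/HeJ, C57BL/6J, C57BLKS/J, C57L/J, CBA/J, CE/J, DBA/2J, I/LnJ, KK/HlJ, LG/J, MA/MyJ, NON/LtJ, NZB/BlNJ, NZW/LacJ, PL/J, RIIIS/J, SEA/GnJ, SJL/J, SM/J and SWR/J. Of these, 22 strains had 3 mice, PL/J and SJL/J had 2 and I/LnJ had 1. All mice were male and on a high fat, high sugar diet, the whole hypothalamus was taken, and each mouse gave 1 unstranded, paired-end mRNA library. The age of the mice is not given in the sources used here, and there was no group on another diet, of the other sex or of another tissue.

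A classical inbred strain is kept by brother-sister mating until its animals carry nearly the same genome, so mice of a strain differ little from each other in DNA while strains differ at very many sites. Many of these strains share ancestors: the C57 strains form a family, C3H/HeJ and CBA/J have a common parent, and BALB/cJ and SEA/GnJ are related by descent. A gene can differ between strains because of a variant in its own neighbourhood or because of a difference elsewhere in the genome or in the tissue, and the values below do not separate these. The hypothalamus itself holds the neurons that set feeding, body temperature, daily rhythm and the release of pituitary hormones, together with astrocytes, oligodendrocytes and microglia.

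The expression table gave 14079 genes, of which 11497 carried 1 gene symbol, 639 several and 1943 none. Values were FPKM, fragments per kilobase of transcript, scaled to the number of fragments sequenced. The authors kept genes with FPKM above 0 in at least 100 of the 282 mice and above 1 in at least 50, so a gene that only 1 classical strain expressed could be among them only through the recombinant inbred mice. Of the 70 mice with a strain mate, 69 had a mate as their nearest mouse by correlation over the 1000 genes that varied most. The exception was PL/J replicate 1, whose nearest mouse was a C57BLKS/J mouse. Over the 253 genes with a strain share above 0.9 (the share is explained in the next paragraph), the PL/J mice differed from each other by at least 0.5 on the log2 scale in 89, against 4 to 32 in the other 67 pairs of mates. Glo1 was at 47.8 FPKM in 1 PL/J mouse and 28.3 in the other. Results of the strain PL/J are therefore given with both mice, and totals also without it. Markers of neighbouring tissue varied too. The summed FPKM of 6 anterior pituitary markers ran from 0.589 to 12689 over the 71 mice (median 26.1). The highest mouse was of C57BLKS/J and the highest strain mean that of SM/J, whose mice were at 12411, 8795 and 8.49. The sum of 5 choroid plexus markers ran from 7.25 to 2035 (median 21.7), and its mean was highest in C57BLKS/J. That of 5 thalamus markers ran from 17.4, in a C57L/J mouse, to 340 (median 224), and its mean was lowest in PL/J and C57L/J. The hypothalamic neuropeptide genes Pmch and Hcrt were at 267 FPKM or more and 63.6 FPKM or more in every mouse. In 17 of the 24 strains with at least 2 mice these carried consecutive mouse numbers, so the strain cannot be told apart from whatever the mice of a strain shared in housing or handling, and the p values measure the spread between mice of a strain.

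Most genes differed between strains. A moderated F test in limma on log2(FPKM + 1), with 1 mean per strain and Benjamini-Hochberg adjustment over all genes, called 8708 of 14079 genes (61.9%) at an adjusted p under 0.05. Without PL/J it called 8526. The strain share, the intraclass correlation, is the part of a gene's variance that lies between strains: it is near 0 where mates are no more alike than other mice and near 1 where mates are alike and strains differ. Its median over all genes was 0.306, with quartiles of 0.153 and 0.485, and 3266 genes exceeded 0.5. Tested the same way within the recombinant inbred sets, 33.5% of genes were called among 18 AXB/BXA strains, 41.4% among 43 BXD strains, 18.3% among 6 BXH strains and 4.15% among 7 CXB strains, with median shares of 0.246, 0.152, 0.312 and 0.0782. These sets differ from the classical strains in the number of strains and mice as well as in descent, and the difference between sets was not tested.

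The 10 named genes with the largest strain share were Gm10260 (0.993), Gm7292 (0.989), 4933431E20Rik (0.988), Vcp (0.988), Tuba1c (0.986), Ftl1 (0.985), Gabra3 (0.984), Gm10020 (0.981), Rpl26 (0.981) and Rps3a3 (0.980). In 8 of them, all but Vcp and Tuba1c, the strains fell into a low and a high class that were at least 1 apart on the log2 scale. Vcp, the ATPase that pulls ubiquitinated proteins out of membranes and complexes, averaged 34.2 to 40.7 FPKM in AKR/J, CE/J, KK/HlJ, LG/J, RIIIS/J, SEA/GnJ and SJL/J and 78.3 to 92.8 in the other 18 strains. Ftl1, the light chain of the iron store ferritin, averaged 14.7 to 18.7 in I/LnJ, 129X1/SvJ, NZW/LacJ and SJL/J and 101 to 146 in the others. Rps3a3 averaged 49.4 to 59.5 in 129X1/SvJ, A/J, C3H/HeJ, CBA/J and NZW/LacJ and 0.247 to 4.56 elsewhere. Most of these genes have a near-identical copy elsewhere, among which short reads can be split differently in different strains. In GENCODE M21 transcripts, Vcp shared 2421 nucleotides at 99.1% identity with Vcp-rs, Ftl1 shared 910 at 99.6% with Ftl1-ps1, Gm10260 shared 545 at 99.1% with Rps18, Gm7292 shared 2537 at 99.2% with 2900097C17Rik, and Tuba1c shared 1350 at 97.8% with Gm6682. Their FPKM are thus uncertain as levels of 1 gene. Gabra3 had no such copy.

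A gene was called as different in a single strain when 3 conditions held: its contrast against the mean of the other 24 strains had an adjusted p under 0.05, the difference was at least 1 on the log2(FPKM + 1) scale, and every mouse of that strain lay beyond every mouse of all other strains. I/LnJ, with 1 mouse, could not be called. Of 337896 tests of a gene in a strain, 192 (0.0568%) met all conditions, 110 (0.0326%) as higher and 82 (0.0243%) as lower, while the contrast alone was called in 9.31%. The calls fell on 189 genes, and the median difference was 1.40 on the log2 scale. All 24 strains tested had calls, from 2 to 19 with a median of 8. NZB/BlNJ had 19, followed by BUB/BnJ with 14, CE/J with 13, and C3H/HeJ and NZW/LacJ with 11 each. At the other end BALB/cJ and CBA/J had 2 each and C57BLKS/J had 3. All 8 calls in DBA/2J were higher, whereas 7 of the 9 in AKR/J and 5 of the 6 in NON/LtJ were lower. The authors' filter could keep a gene expressed almost only in DBA/2J, a parent of the BXD set. It could not keep a gene expressed almost only in AKR/J or NON/LtJ, and its part in these directions was not tested. Among the calls 129 were of genes with 1 symbol, 106 of them protein coding, 7 of loci with several symbols and 56 of loci without any, of which 42 were higher and 14 lower. Without PL/J the number of calls was again 192, and 186 of the calls of the full data were among them. In the account of these genes, the named gene with the largest difference of each strain was fixed by a rule, and the others were chosen after their values had been seen.

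**Figure D1:**
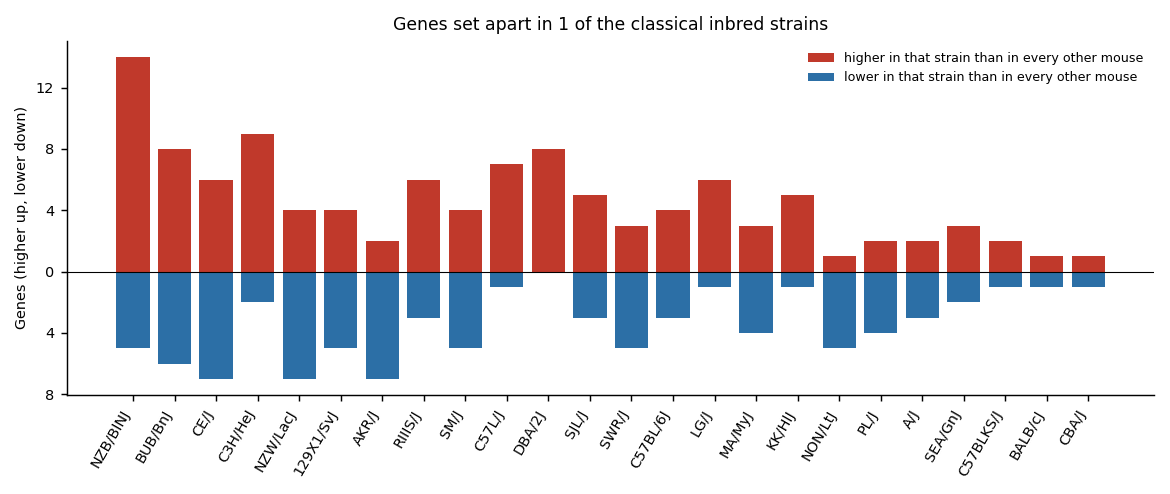
Number of genes called in a single strain (y axis, genes) for each of 24 classical inbred strains (x axis), with genes higher in that strain drawn upwards and lower genes downwards. NZB/BlNJ stands at 14 higher and 5 lower, DBA/2J at 8 higher and none lower, and BALB/cJ and CBA/J at 1 of each.

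In genes of neurons and their signalling, several single strains lay far below all others. Gabra3 encodes a subunit of the GABA-A receptor, the chloride channel that the transmitter GABA opens. It was at 1.70, 0.882 and 1.21 FPKM in the 3 NZB/BlNJ mice and at 29.2 to 49.4 (median 42.1) in the 68 mice of the other strains. Every NZB/BlNJ mouse lay far under the lowest of these. The difference was -4.25 ± 0.07 (SE) on the log2(FPKM + 1) scale, or 33.1-fold lower in FPKM (limma, Benjamini-Hochberg adjusted p = 2.01e-44), the largest among all calls in genes with 1 symbol. The gene lies on chromosome X, at 72432681 to 72656848 in mm10. Dgkb, a diacylglycerol kinase of neurons on chromosome 12 (37880152 to 38635598), was at 2.05, 1.85 and 1.76 in MA/MyJ against 12.6 to 25.1 (median 16.5), a difference of -2.61 ± 0.08 (limma, adjusted p = 2.54e-31). Rit2, a small GTPase of neurons, was at 31.2, 30.4 and 28.6 in the same strain and at 80.9 to 130 elsewhere. Rgs7, which shortens G protein signals, was at 7.20, 9.65 and 12.6 in SM/J against 20.99 to 38.8. Kcnj16, an inward rectifier potassium channel, was at 3.55, 3.94 and 3.63 in AKR/J against 3.96 to 19.5, so AKR/J stood just outside the others, the next strain being LG/J with a mean of 4.49. Pnkd, whose mutation in humans causes a paroxysmal movement disorder, was at 20.3, 21.7 and 19.5 in NON/LtJ against 48.2 to 78.7 (median 63.9).

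Growth factors and proteins of the matrix and of the cell cortex were called in both directions. Fgf1, a fibroblast growth factor that lowers food intake when given to the brain, was at 5.08, 4.95 and 6.33 FPKM in SWR/J and at 24.3 to 56.8 (median 39.95) in all other mice. The SWR/J mice were 7.24-fold lower, with a difference of -2.63 ± 0.09 on the log2 scale (limma, adjusted p = 2.69e-29), and the lowest other strain, C57BLKS/J, averaged 26.5. Adamts15 encodes a secreted protease that cuts proteoglycans of the matrix. It was at 27.2, 24.8 and 31.1 in CBA/J against 1.74 to 6.93 (median 3.201), 8.46-fold higher, with a difference of 2.78 ± 0.10 (limma, adjusted p = 3.47e-28). Hbegf, a ligand of the EGF receptor, was at 19.1, 25.5 and 19.9 in C3H/HeJ against 3.76 to 6.64, 4.27-fold higher. Cthrc1, a secreted protein first found in injured arteries, was at 0.683, 0.955 and 0.486 in 129X1/SvJ against 1.11 to 15.02 (median 9.95). LG/J, at a mean of 1.84, came next to it and the remaining strains were higher. Frmd4a, a scaffold of epithelial polarity on chromosome 2 (4017717 to 4614388), was at 40.3, 47.0 and 48.0 in BALB/cJ against 11.8 to 18.3, 3.02-fold higher. Plekhm3 on chromosome 1 (64789113 to 64956824) was at 36.8, 35.7 and 33.6 in RIIIS/J against 3.77 to 8.36, 5.70-fold higher. For both genes the strain's lowest mouse was over all other mice by more than the whole range of these mice.

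**Figure D2:**
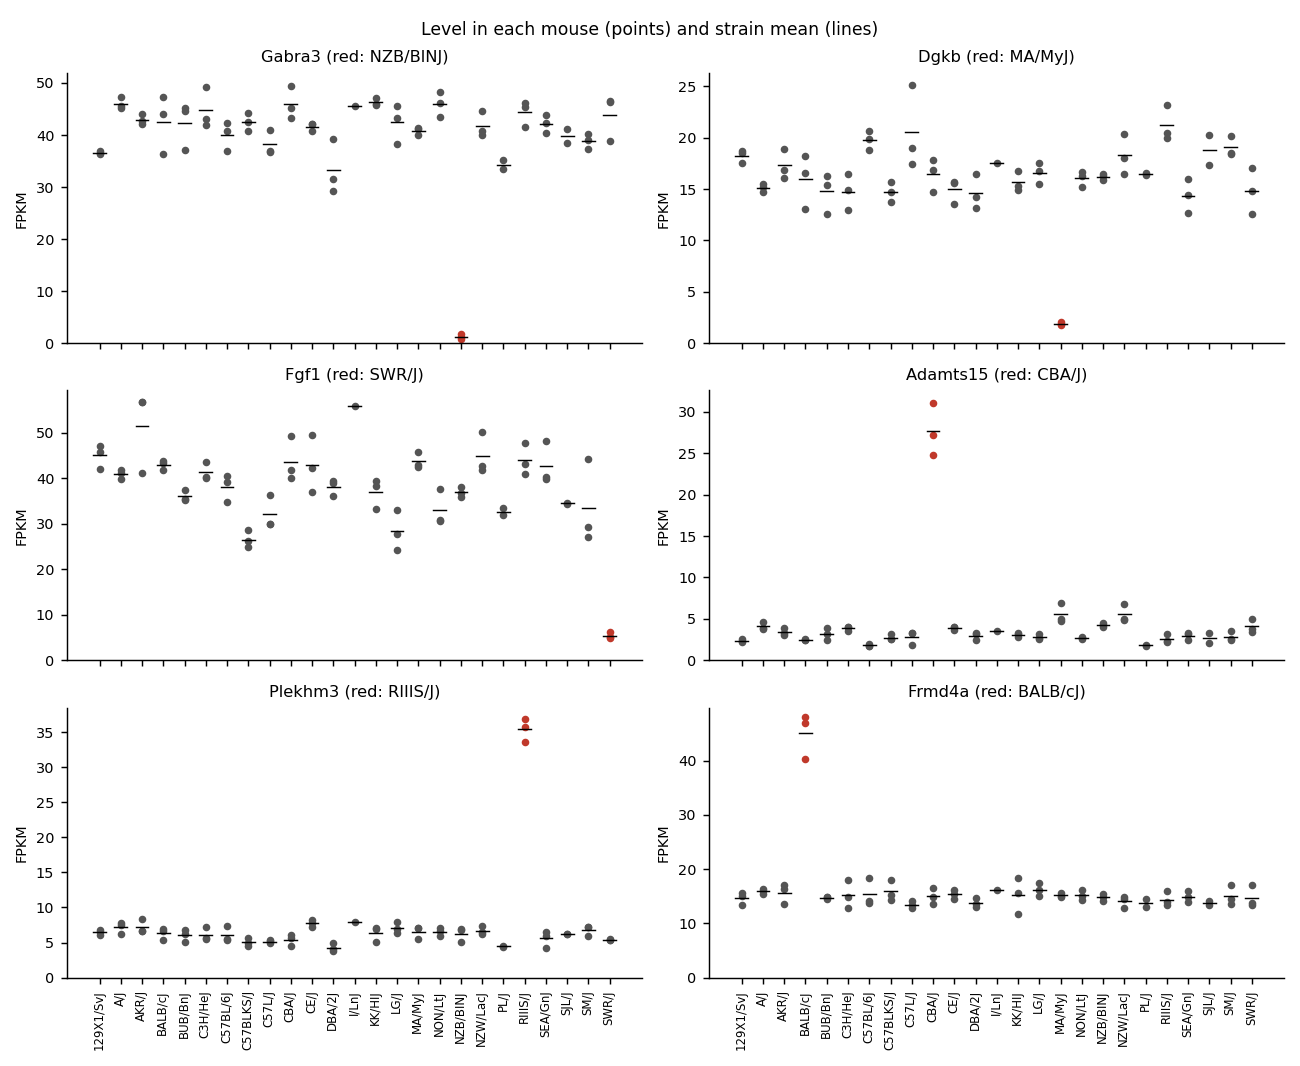
FPKM (y axis) of Gabra3, Dgkb, Fgf1, Adamts15, Plekhm3 and Frmd4a, 1 panel each, in the classical inbred strains (x axis), with a point for each mouse and a line at each strain mean. In each panel 1 strain stands apart from all others: NZB/BlNJ, MA/MyJ and SWR/J below them for the first 3 genes, and CBA/J, RIIIS/J and BALB/cJ above them for the last 3.

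Enzymes and transporters were called in at least 7 strains. In SWR/J, Nt5dc3, a protein related to nucleotidases, was at 4.30, 5.28 and 5.29 FPKM against 19.6 to 37.5 (median 29.0), a difference of -2.34 ± 0.07 (limma, adjusted p = 4.16e-32), and Slc7a11, the cystine and glutamate exchanger, was at 14.8, 15.5 and 14.7 against 3.70 to 9.78, 2.46-fold higher. Nln, the peptidase neurolysin that cuts neurotensin, was at 0.712, 0.770 and 0.714 in NZB/BlNJ against 4.32 to 8.54, 8.37-fold lower. CE/J had 2 low enzymes: Akr7a5, an aldehyde reductase, was at 3.72, 4.31 and 2.16 against 11.8 to 18.6, and Bphl, a hydrolase, at 5.28, 5.44 and 5.22 against 12.5 to 19.0. BUB/BnJ had a low level of 2 glutathione transferases, with Gstz1 at 8.60, 7.18 and 7.56 against 16.6 to 28.5 and Gstt1 at 5.62, 4.09 and 5.60 against 8.92 to 17.9. Gstz1 and Fah act in the breakdown of tyrosine, and Fah was low in another strain, SM/J, at 10.7, 12.6 and 8.84 against 18.6 to 34.2. Acsl5, which joins fatty acids to coenzyme A, was at 19.0, 20.9 and 19.6 in C57BLKS/J against 6.49 to 10.5. Lipa, the lysosomal acid lipase, was at 19.1, 21.8 and 17.8 in RIIIS/J against 7.09 to 16.3, with LG/J next at a mean of 16.1.

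Mttp, which loads lipid onto lipoproteins, was called in PL/J, but its mice were at 3.31 and 0.0240 FPKM against 4.60 to 8.84 elsewhere. The PL/J mice were thus both below all others and far from each other. Fabp7, a fatty acid binding protein of astrocytes and their precursors, was at 8.58 and 6.51 in SJL/J against 17.6 to 65.7 (median 34.5), 4.66-fold lower (limma, adjusted p = 3.29e-14). Sgk1, a kinase that glucocorticoids induce, was at 61.9, 65.8 and 37.7 in 129X1/SvJ against 8.47 to 37.6, so its lowest mouse, replicate 3, was level with the highest mouse of the rest. That mouse had the lowest share of uniquely mapped reads of the 71.

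Immune and microglial genes were called in AKR/J, SJL/J, A/J, C57L/J, 129X1/SvJ, SWR/J, DBA/2J and BUB/BnJ, among other strains. Mpeg1, a pore-forming protein of macrophages and microglia, was at 0.401, 0.387 and 0.248 FPKM in AKR/J against 0.504 to 7.13 (median 3.19), 9.79-fold lower (limma, adjusted p = 2.86e-13), although the lowest other mouse came close to it. C3, the central complement protein, was at 12.1 and 14.5 in SJL/J. Of the other mice the highest reached 11.0 and belonged to SWR/J, whose mean was 10.6, and the median was 1.38, so 2 strains carried high C3. C4a, another complement gene with 5378 nucleotides nearly identical to C4b, was also highest in SJL/J, at 7.35 and 9.47 against 0.430 to 6.72. Lbp, the carrier of bacterial lipopolysaccharide, was at 0.283, 0.404 and 0.282 in A/J against 1.63 to 13.02 (median 4.19). Tlr3, the receptor of double-stranded RNA, was at 0.585, 0.598 and 0.697 in C57L/J against 1.56 to 3.598. Cd59a, which blocks the last step of complement, was called in opposite directions in 2 strains, with 3.08, 2.80 and 3.25 in 129X1/SvJ and 19.2, 17.3 and 20.2 in SWR/J. Bst2, an antiviral tether of the cell membrane, was at 7.46, 7.46 and 10.4 in DBA/2J against 0.982 to 6.02, and Oasl2, an interferon-induced protein, was at 5.86, 8.86 and 4.36 in the same strain against 0.805 to 4.32. H2-D1, a class I antigen of the major histocompatibility complex, was at 66.0, 50.9 and 52.6 in BUB/BnJ against 2.61 to 38.2. This gene has near-identical stretches in its relatives, among them H2-Q7, and its alleles differ between strains, so the level of H2-D1 by itself is uncertain.

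The remaining genes had other or less known roles. In C3H/HeJ, Nme7, a nucleoside diphosphate kinase of cilia and centrosomes on chromosome 1 (164312879 to 164348181), was at 28.5, 36.6 and 22.1 FPKM against 1.60 to 6.13 (median 4.23), 6.74-fold higher with a difference of 2.49 ± 0.13 (limma, adjusted p = 2.18e-21). Zswim4 was at 15.9, 15.1 and 16.2 against 3.23 to 5.68. Copz2, a subunit of the COPI coat, was at 0.0789, 0.272 and 0.0684 against 0.679 to 8.19. In C57BL/6J, the strain of the reference genome, Wdfy1, an adaptor of Toll-like receptors on chromosome 1 (79702262 to 79761769), was at 4.77, 5.43 and 5.53 against 15.4 to 20.2, 3.32-fold lower with a difference of -1.56 ± 0.04 (limma, adjusted p = 1.59e-32). Tnni1, the slow skeletal troponin I on chromosome 1 (135782943 to 135805622), was at 6.42, 5.41 and 8.19 in that strain against 0 to 4.86 (median 0.405), and SEA/GnJ, at a mean of 3.79, was next. In A/J, Nnat, an imprinted membrane protein of the developing brain, was at 101, 99.7 and 75.6 against 154 to 499, while its locus also overlaps Blcap on the opposite strand, which these libraries do not separate. Rsph1, a radial spoke protein of motile cilia, was at 25.7, 27.4 and 28.7 in KK/HlJ against 6.62 to 20.2. In SEA/GnJ the named call was Gkn3, at 3.83, 4.25 and 3.83 against 0 to 2.94, and in SM/J it was B230217O12Rik, at 0.672, 0.888 and 1.13 against 1.72 to 9.67. Acp1 was called in C57BLKS/J at 10.9, 10.1 and 11.0, but C57BL/6J followed at a mean of 9.06 and the median of all others was 3.35. Trim12a was called in C57L/J at 2.54, 2.52 and 2.66 and reached 2.12 as a mean in C57BL/6J, while the median of the other mice was 0. Gm26653, which overlaps Grin2b on the other strand, was at 6.94, 5.07 and 4.30 in NON/LtJ against 0.116 to 1.52.

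Some calls of a strain lay side by side. Among 155 calls with a position in the deposited assembly, 24 formed 7 clusters in which neighbours of 1 strain were at most 2 Mb apart. In NZB/BlNJ 9 loci on chromosome 8 between 18595131 and 20581999 were all higher. Among them were Mcph1, a regulator of chromosome condensation whose mutation causes small brains, at 14.4, 17.2 and 14.6 FPKM against 2.49 to 4.59, and Gm6483, at 51.2, 48.5 and 44.0 against a median of 2.62 and a mean of 30.9 in NZW/LacJ. Gm6483 has near-identical stretches in 7 other genes. XLOC_034323 and XLOC_035197 of this cluster cover nearly the same stretch on opposite strands, which these libraries do not separate, so the loci are not all separate genes. In NZW/LacJ 3 loci on chromosome 2 between 177192260 and 177840336 were all lower. They were Gm14410, Gm14322 and Gm14325, members of a large family of zinc finger genes with near-identical stretches, and Gm14325 was at 0.194, 0.0615 and 0.170 against 1.91 to 16.3. In RIIIS/J the neighbours on chromosome 19 between 34492316 and 34613401 went opposite ways, with Lipa higher and Ifit3 and I830012O16Rik lower. The same held in CE/J on chromosome 13, where Serpinb6a was higher and Bphl lower, and in SWR/J on chromosome 3, where Slc7a11 was higher and 5031434O11Rik lower. In A/J Nnat and Lbp on chromosome 2, between 157560078 and 158324642, were both lower. In C3H/HeJ the Y-linked genes Kdm5d, Eif2s3y and Ddx3y were all higher, at 2.19-fold, 2.26-fold and 2.07-fold the mean of the other strains. Kdm5d, a histone demethylase, was at 13.9, 12.99 and 11.1 in this strain. Uty, another Y-linked gene, split the strains otherwise: it averaged 8.57 to 11.2 in AKR/J, MA/MyJ, BUB/BnJ, C3H/HeJ, SWR/J, SJL/J, NON/LtJ and PL/J and 4.57 to 5.78 in the others.

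Complete absence in a single strain was rare. A gene was taken as off in a strain with every mouse under 0.1 FPKM and as on with every mouse at 1 FPKM or more. Of all genes 5 (0.0355%) were off in at least 1 strain and on in every other. Gm14410 alone was off in just 1 strain: in NZW/LacJ it was listed at 0, 0.0428 and 0, while the other mice ranged from 1.03 to 11.1. 1500026H17Rik on chromosome 10 (89686351 to 89693816) was off in C57L/J and RIIIS/J and at 1.34 to 7.60 in the mice of the other strains. The remaining loci had no symbol. XLOC_004091 was off in C57BL/6J, C57BLKS/J and C57L/J, the C57 family, and at 1.24 to 3.06 elsewhere, and XLOC_002273 was on in A/J, DBA/2J and I/LnJ alone, at 1.36 to 2.31. XLOC_024435 on chromosome 4 (69925205 to 69934039) was off in 13 strains and at 153 to 440 in the other 12.

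A wider class of all-or-none patterns was counted with no reference to 0. In 87 genes (0.618%) the strains fell into a low and a high class, such that the lowest mouse of the high class was at least 1 on the log2 scale above the highest mouse of the low class. The smaller class held 1 strain in 35 of these genes, which was low in 20 and high in 15, 2 or 3 strains in 15 genes and 4 to 12 strains in 37. Loci without a symbol made up 42.5% of the 87 genes and 13.8% of all genes.

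Several of these genes were mirrored by another locus, in some cases a near-identical copy. These pairs were looked up after their values had been seen and are given as descriptions. Rpl26, a protein of the large ribosomal subunit, was at 46.6 to 92.5 FPKM in the mice of 14 strains and at 219 to 344 in those of the other 11. XLOC_027629, a locus without a symbol on chromosome 5 (3021050 to 3236958) that overlaps 10 pseudogenes in M21 and whose sequence was not compared with Rpl26, was at 128 to 263 in the first 14 strains and at 0 to 5.95 in the others. The median of the sum of both loci was 255 in the first class and 288 in the second. FPKM are scaled to transcript length, so sums over loci, here and below, do not count reads. A split of reads between the loci was not tested. Rps15a, a protein of the small subunit, was low in 1 strain, at 30.5, 53.9 and 29.1 in CE/J against 126 to 260. XLOC_022078, which lies on the pseudogene Rps15a-ps7 of chromosome 2 (152185244 to 152185700), was high there, at 53.3, 50.6 and 44.8 against 0 to 6.45. In CE/J the summed FPKM of both loci lay below Rps15a alone in every other mouse. Rps26-ps1 was at 26.5 to 145 in BUB/BnJ, C3H/HeJ, CBA/J, KK/HlJ, NON/LtJ and SM/J, where Rps26 was at 37.7 to 209, against 156 to 268 in the other strains. Isca1, which builds iron-sulphur clusters, was at 9.44, 10.3 and 10.1 in LG/J against 24.6 to 43.9, and AK157302, with 1914 nucleotides at 99.0% identity to it, was at 12.6, 12.3 and 10.9 in LG/J against 0.111 to 9.76. In LG/J, too, the summed FPKM of both loci lay below Isca1 alone in every other mouse. Over 10 strains with AK157302 at 5.70 to 12.6, Isca1 was at 9.44 to 33.0, and over the other 15, with AK157302 at 0.111 to 1.32, it was at 34.8 to 43.9. Gm10260 was at 0 to 0.824 in 129X1/SvJ, C57BL/6J, C57L/J and KK/HlJ and at 43.0 to 94.5 in the others, while Rps18 was at 102 to 135 and 46.7 to 74.5 in these classes.

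**Figure D3:**
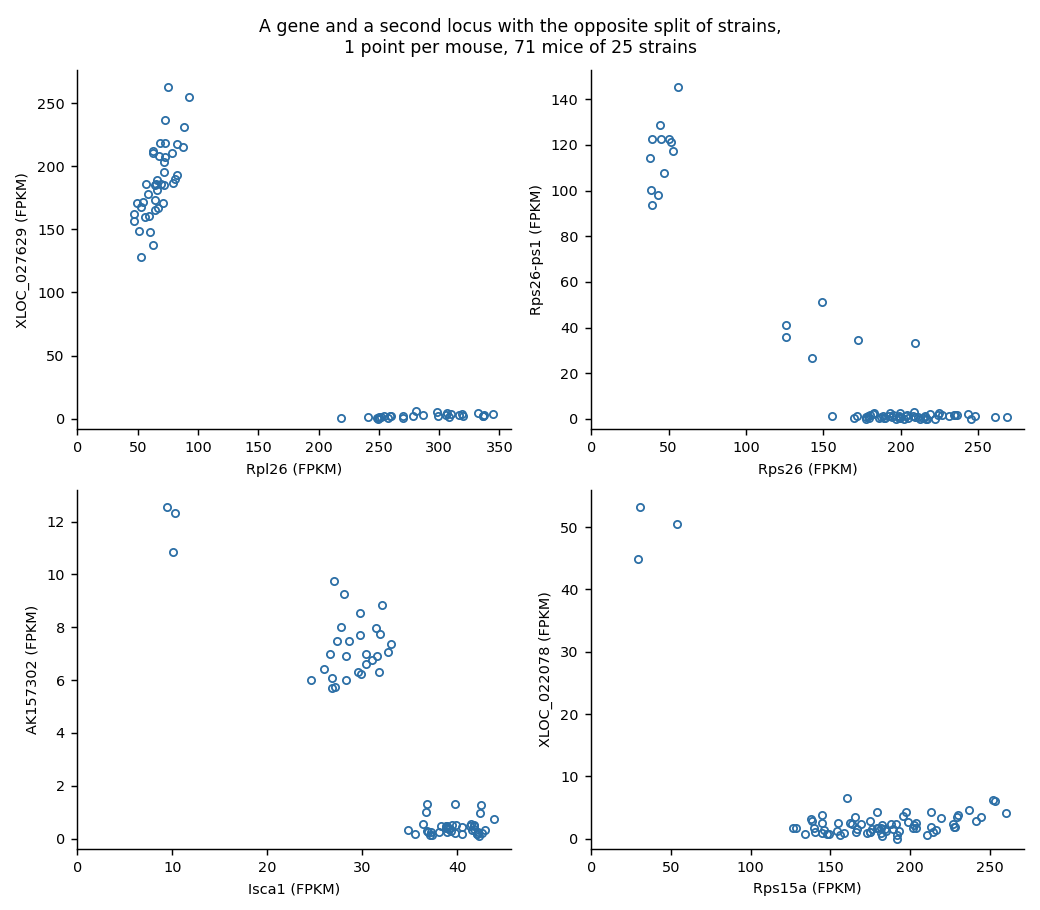
FPKM of a gene and of a second locus (the axes of each panel) in the 71 mice, 1 point per mouse, for Rpl26 and XLOC_027629, Rps26 and Rps26-ps1, Isca1 and AK157302, and Rps15a and XLOC_022078. Mice with a high second locus had a lower gene in each panel, with an overlap between the classes for Rps26, separate clouds of points for Rpl26 and a single strain, CE/J, apart from the rest for Rps15a.

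In another pair the genes lay on opposite strands of the same locus. 4933431E20Rik was at 0.807 to 1.94 FPKM in MA/MyJ, NZW/LacJ and RIIIS/J and at 25.9 to 41.5 in the other strains. Gstm5, the glutathione transferase it overlaps, was at 12.02 to 40.8 in the first 3 strains and at 55.6 to 92.3 in the others. Both thus moved the same way, and without strand their reads cannot be told apart. XLOC_024435, given above as off in 13 strains, overlaps another locus without a symbol, XLOC_025575, which was at 1.35 to 4.26 in those 13 strains and at 22.04 to 38.4 in the other 12.

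Genes with a variant known from earlier work on these strains came next. Of 35 such genes listed from general knowledge, 15 were in the table and 13 of them were called by the F test. Nnt, the mitochondrial transhydrogenase of which C57BL/6J carries a deletion, was at 6.00, 5.95 and 6.05 FPKM in C57BL/6J, the lowest of all strains, with SJL/J next at a mean of 8.13 and SM/J highest at 12.2 (limma, adjusted p = 9.04e-14). Glo1, the glyoxalase that is duplicated in some strains, had 3 levels and a strain share of 0.970. It was at 93.2, 105 and 92.4 in CE/J and at 93.8, 98.6 and 95.4 in A/J. It averaged 52.4 to 71.6 in SEA/GnJ, DBA/2J, C57BLKS/J, I/LnJ, CBA/J, AKR/J and C3H/HeJ, and 25.6 to 38.1 in the rest. The 38.1 was that of PL/J, whose mice were at 47.8 and 28.3, the first of them between the low and the middle level. Btbd9, its neighbour on chromosome 17, was also highest in A/J, at a mean of 18.2, and CE/J, at 18.0. Alad, the enzyme of haem synthesis that is duplicated in some strains, was lowest in KK/HlJ (mean 12.9), SM/J (13.8), C57BLKS/J (15.6) and C57BL/6J (16.3) and highest in C57L/J (47.1), and its neighbour Hdhd3 had the same extremes, with 2.15 in SM/J, 2.22 in C57BL/6J and 2.29 in KK/HlJ against 10.4 in C57L/J.

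Zhx2, a repressor of foetal liver genes that is disrupted in BALB/cJ, was at 1.84, 1.49 and 4.02 FPKM in BALB/cJ against 4.06 to 15.3 elsewhere, so its highest mouse all but touched the lowest of the others. The difference was -1.07 ± 0.20 on the log2 scale (limma, adjusted p = 0.000134). Myo5a, the motor that carries pigment granules and is the dilute coat colour gene of DBA/2J, was lowest in DBA/2J, at 36.3, 30.9 and 28.1, though SEA/GnJ (mean 38.6) and PL/J (39.7) were near and CE/J was highest at 69.3. Phka1, of muscle phosphorylase kinase, was lowest in the single I/LnJ mouse, at 3.14, with DBA/2J next at a mean of 7.71. Gpr98 (adjusted p = 0.297) and Ide (adjusted p = 0.116) did not pass the F test of limma.

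Gene lists were described by how many of their measured members passed the F test, beside 61.9% of all genes, and by their median strain share, beside 0.306 of all genes. All 14 genes of the major histocompatibility complex and antigen presentation were called, with a median share of 0.643, as were all 13 glutathione transferases (0.684) and all 9 astrocyte markers (0.582). Among 13 microglial genes 12 were called (0.584), among 11 oligodendrocyte genes 10 (0.503), among 10 interferon-stimulated genes 8 (0.553) and among 15 clock genes 14 (0.461). Of 12 feeding and energy balance genes 9 were called (0.359), of 16 neuropeptide genes 10 (0.325), of 12 GABA-A receptor subunits 8 (0.315) and of 11 immediate early genes 5 (0.191). Large families included 84 cytosolic ribosomal proteins, with 68 called (0.518), 69 subunits of oxidative phosphorylation, with 49 called (0.386), and 216 zinc finger genes named Zfp, with 108 called (0.236). Of 371 genes with a Gm name 187 were called (0.222), and of the 1943 loci without a symbol 1139 (0.286). The 12 reference genes often used for normalization had 10 called and a median share of 0.550, above that of all genes. Among them Rplp0 ran from a mean of 34.5 in NZB/BlNJ to 113 in C57BLKS/J. Copies of Rplp0 were not searched for, and the part of near-identical loci in the share of the ribosomal proteins was not tested.

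**Figure D4:**
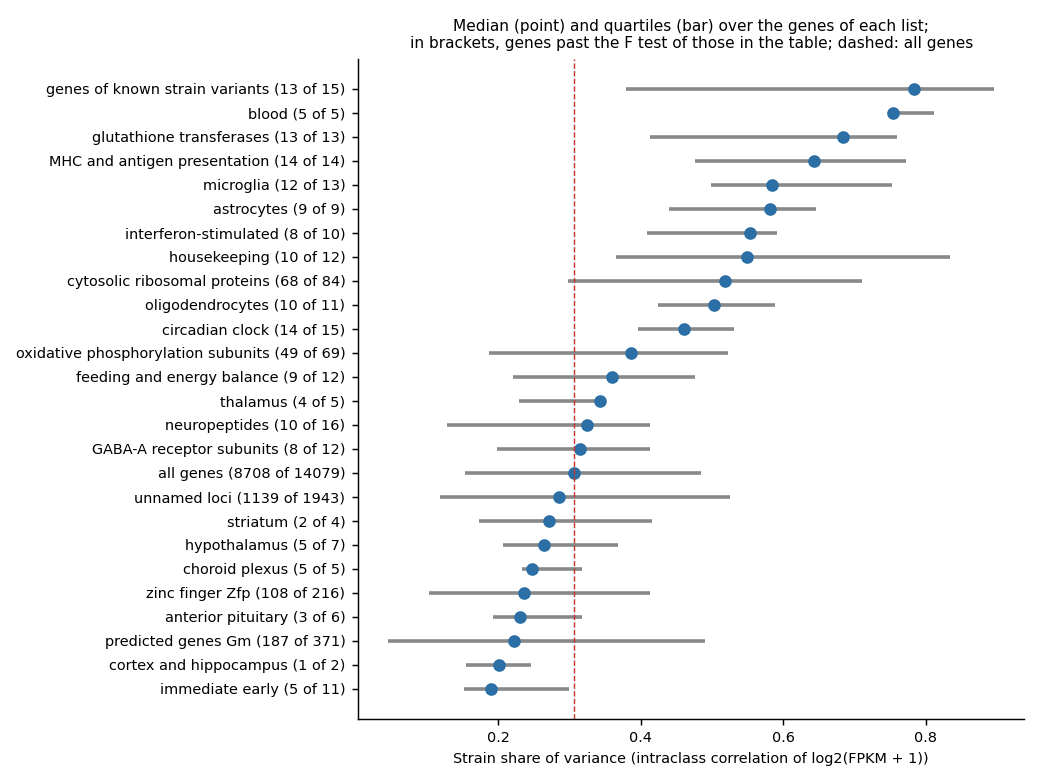
Median strain share (points) and quartiles (bars) of the genes of each list over the 25 strains, on an axis from no to full share of variance between strains, with a dashed line at 0.306, the median of all 14079 genes. Glutathione transferases (0.684) and the major histocompatibility complex (0.643) lie to the right of the line, and zinc finger genes (0.236) and immediate early genes (0.191) to its left.

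In the lists of hypothalamic function the levels of most called genes differed between strains by moderate folds. The widest of those given here was Gnrh1, the gonadotropin-releasing hormone, at means of 0.779 FPKM in RIIIS/J and 5.02 in DBA/2J (limma, adjusted p = 0.000398). Pmch, which encodes the appetite-raising melanin-concentrating hormone, averaged 329 FPKM in C57BLKS/J at the lowest and 693 in BALB/cJ at the highest. Hcrt, the orexin precursor that keeps animals awake, ran from 84.0 in SWR/J to 219 in C57L/J. Avp, the antidiuretic hormone, ran from 168 in A/J to 543 in KK/HlJ, and Gal, the galanin precursor, from 22.9 in NZB/BlNJ to 56.2 in SJL/J. Lepr, the leptin receptor, ran from 0.928 in NZB/BlNJ to 2.46 in KK/HlJ. Foxo1, which had the largest share among the feeding genes, ran from 3.85 in C3H/HeJ to 5.50 in LG/J. Npy passed the test at an adjusted p of 0.0407 (limma). Pomc did not, with an adjusted p of 0.0662 (limma). Its highest mean, 4501 in SM/J, stood in the strain with the highest mean of pituitary markers, and Pomc is also expressed in the pituitary. The part of attached pituitary in this value was not tested. Gabrg3, another GABA-A receptor subunit, was lowest in SJL/J (2.39) and KK/HlJ (2.60) and highest in CBA/J (8.82), with an adjusted p of 2.69e-18 (limma). PL/J was lowest of all strains in 5 of the 12 GABA-A receptor subunits and 4 of the 15 clock genes, against 5.97% of all genes, and it had the lowest thalamus markers too, at a mean of 113 against a median mouse of 224, whose part in these levels was not tested. These ranks rest on the mean of both PL/J mice, which were unlike each other as given above, and the mice were not ranked separately.

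In the microglial and interferon lists 1 strain stood at the edge of most genes. CBA/J was lowest in 9 of the 13 microglial genes and among the lowest 2 strains in 12, whereas it was lowest in 3.35% and among the lowest 2 in 7.44% of all genes. Ctss, a protease of microglial lysosomes, averaged 24.5 FPKM in CBA/J and 60.4 in SEA/GnJ, the ends of its range. C1qc, a chain of the complement starter C1q, was 1 of the 2 single-strain calls of CBA/J, at 6.45, 7.002 and 6.16 against 7.65 to 27.8. The summed FPKM of the 13 genes was 114 ± 17.4 (SD, n = 3) in CBA/J, with mice from 94.0 to 127, then 144 ± 10.6 (n = 3) in MA/MyJ and 245 ± 6.49 (n = 3) in SEA/GnJ. No mouse of another strain overlapped with those of CBA/J. Oligodendrocyte genes were low in CBA/J too: it was lowest in 3 and among the lowest 2 in 4 of these 11 genes, and their summed FPKM, 2116 ± 217 (SD, n = 3), was the lowest of the strains with more than 1 mouse, against 2972 ± 336 (n = 3) in C57BLKS/J at the highest. For this sum the CBA/J mice, from 1865 to 2245, overlapped with LG/J (mean 2135), CE/J (2194) and other strains. A KK/HlJ mouse was lower still, at 1640. In whole tissue, fewer cells of a type and less RNA per cell cannot be told apart.

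DBA/2J was highest in 8 of the 10 interferon-stimulated genes, against 4.30% of all genes. Their summed FPKM was 84.5 ± 1.97 (SD, n = 3) in DBA/2J, with mice from 82.3 to 86.1, then 60.9 ± 9.57 (n = 2) in PL/J and 56.5 ± 0.194 (n = 3) in BUB/BnJ, and it was lowest in A/J at 32.4 ± 2.77 (n = 3). The DBA/2J mice overlapped with no other strain. Ifit3, which had the largest share of the list, was lowest in RIIIS/J, at 0.240, 0.376 and 0.407 against 0.510 to 11.3, and has a near-identical neighbour in Ifit3b. LG/J was highest in 6 of the 11 immediate early genes, against 3.05% of all genes, while their median share was below that of all genes. Their summed FPKM was 116 ± 22.2 (SD, n = 3) in LG/J, with mice from 93.0 to 137, which overlapped with SEA/GnJ, whose mice reached 134, and with AKR/J, C57BLKS/J and MA/MyJ among others.

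Genes with the largest share in other lists were split or graded. Ndufs5, a subunit of respiratory complex I, averaged 3.29 to 4.33 FPKM in NZB/BlNJ, I/LnJ, NZW/LacJ, SM/J, C57BLKS/J, 129X1/SvJ, RIIIS/J, BUB/BnJ and SWR/J and 43.7 to 59.0 in the other 16 strains, with no strain between. It shares 319 nucleotides at 99.4% identity with BC002163, and the part of this copy in the classes was not tested. Zfp949 averaged 7.24 to 9.77 in 16 strains and 16.2 to 21.2 in 9, but its highest low mouse, at 10.05, and its lowest high mouse, at 13.99, were less than 1 apart on the log2 scale. H2-D1 was more graded, from 3.51 in CBA/J to 56.5 in BUB/BnJ. Gstm5, Gstm4 and Gstm7 were at their extremes in the same strains, MA/MyJ, NZW/LacJ and RIIIS/J, Gstm5 lowest and the others highest.

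The number of genes that differed between 2 strains varied over the pairs. Over the 231 pairs of the 22 strains with 3 mice, 685 to 2190 genes were called between 2 strains (limma contrasts, adjusted over all genes and pairs), with a median of 1246, and 9.03% of all tests were called. C57BL/6J and C57BLKS/J had the fewest and DBA/2J and SM/J the most. Counting only called genes that differed at least 2-fold in FPKM + 1, pairs had 84 to 285 genes with a median of 179. The fewest were 84 between C3H/HeJ and CBA/J, followed by 89 between BALB/cJ and SEA/GnJ, which are related by descent as well. Next came 95 between C57BL/6J and C57L/J, 100 between C57BL/6J and C57BLKS/J and 111 between A/J and AKR/J. Whether these pairs differ from the others was not tested.

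A single-strain gene of a parent can be followed in the recombinant inbred sets, whose strains each received a random mixture of 2 parents' genomes. These mice were not used to make the calls, but the authors' filter of genes did use them. A gene near 0 outside 1 parent could pass the filter only where enough recombinant inbred mice expressed it. For such genes, differences among the strains of a set were thus partly fixed by the filter. C57BL/6J or a closely related substrain is a parent of all 4 sets. The other parents of BXD, AXB/BXA, BXH and CXB are DBA/2J, A/J, C3H/HeJ and BALB/cJ, or substrains close to them. All 15 genes called in a parent of the BXD set also differed among the BXD strains, against 41.4% of all genes, and each had strains nearer to either parent. In AXB/BXA this was so for 10 of 12 genes by the test (33.5% of all genes) and 9 by the presence of strains nearer to each parent, in BXH for 16 and 15 of 18 (18.3%) and in CXB for 5 and 6 of 9 (4.15%). The counts of the sets are not of separate genes, since the 7 genes called in C57BL/6J are in each. Those of BXH also include the 3 Y-linked genes called in C3H/HeJ. How often other genes have strains nearer to each parent was not counted. Every strain is nearer to 1 of the parents, so spread alone can give both groups. A wide gap between both groups of strains, over 0.5 of the parents' difference on the log2 scale, was present in fewer genes: 6 of 15 in BXD, 5 of 12 in AXB/BXA, 14 of 18 in BXH and 3 of 9 in CXB. Lbp, low in A/J, averaged 0.797 FPKM in 6 AXB/BXA strains and 3.52 in 12 (limma, adjusted p = 8.14e-06). Nme7, high in C3H/HeJ, averaged 34.1 in 2 BXH strains and 4.60 in 4 (limma, adjusted p = 1.30e-09). Tnni1 averaged 4.65 in 28 BXD strains and 0.423 in 15 (limma, adjusted p = 2.67e-29).

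Wdfy1 was followed in all 4 sets. Among the BXD strains 15 were nearer to C57BL/6J, at a mean of 5.62 FPKM, and 28 nearer to DBA/2J, at 17.2 (limma, adjusted p = 1.19e-50). Of the 18 BXD strains labelled TyJ 2 were low, at 5.94 and 6.48, and of the 25 others 13 were low, at 5.003 to 6.03. None of the 18 AXB/BXA, 6 BXH or 7 CXB strains was near the low level of C57BL/6J. Nnat, low in A/J, and Frmd4a and Zhx2, shifted in BALB/cJ, likewise showed the deviating strain's level in 0 of 18 AXB/BXA and 0 of 7 CXB strains. The labels do not say whether BALB/cJ itself or a related substrain was the CXB parent.

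**Figure D5:**
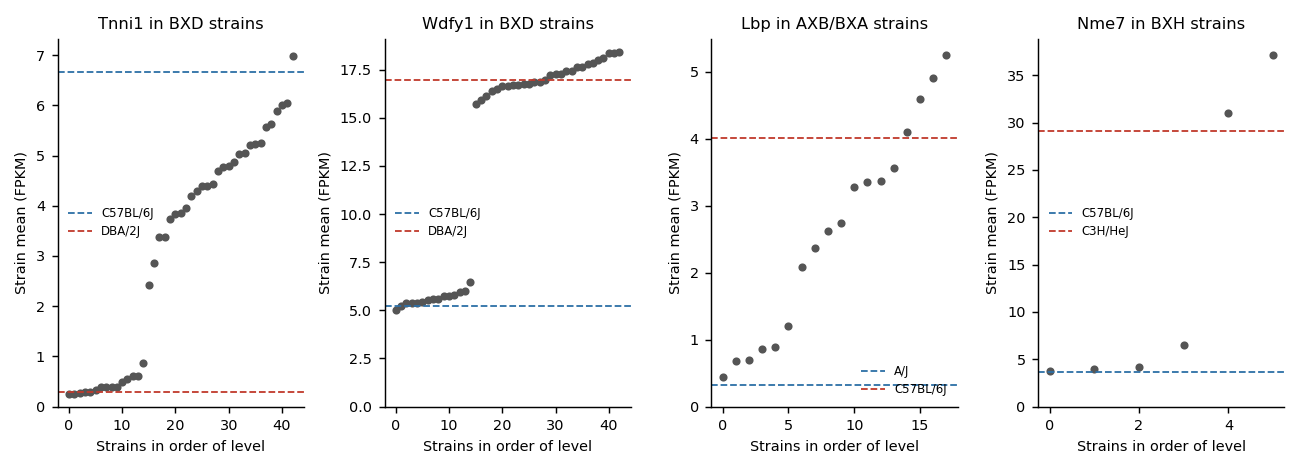
Mean FPKM of each recombinant inbred strain (y axis), in order of level (x axis), for Tnni1 and Wdfy1 in BXD, Lbp in AXB/BXA and Nme7 in BXH, with dashed lines at the means of both parents. The strains lie in a low and a high group near the parents' levels for Wdfy1 (15 low and 28 high) and Nme7 (4 low and 2 high).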

How the data were processed

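The authors aligned unstranded reads of all strains to mm10, the C57BL/6J genome, with STAR 2.3.1 (reads at up to 10 loci allowed), built an assembly for each strain (Cufflinks 2.2.0), joined these to GENCODE M2 and deposited FPKM from Cuffnorm 2.2.1. The part of the single reference in strain differences was not tested. The read depth per mouse is not in the expression table, but the authors list it by sample. The classical mice had 6253452 to 20995949 read pairs (median 13161625) and 72.3% to 92.2% uniquely mapped reads. Precision is given by the spread between mice.

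Strains came from the labels, and 0 columns were unmapped. The label NON/LtJ is NON/ShiLtJ in the sample title. Log2(FPKM + 1) was fitted in limma 3.58.1 (R 4.3.3) with 1 mean per strain, all 71 mice and no covariate. The fit was tested on simulated data. A contrast compared each strain with the unweighted mean of the other 24, adjusted over all genes and 25 strains by Benjamini-Hochberg. Copies were searched with BLAST 2.17.0 among GENCODE M21 transcripts, at 95% identity or more over at least 100 nucleotides. Tables and figures were made in Python 3.11.15 with pandas 2.3.3, numpy 2.4.6 and matplotlib 3.10.9.

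Named genes were the 10 of largest strain share at a mean of at least 1 FPKM, the single-strain call of largest difference in each strain, genes off in 1 strain and on in 24, the known variants, and the called gene of largest share in each list. Other genes named were chosen after their values had been seen. Some known variants are not reported here. The members and lists were chosen with earlier results of these data known. Alternatives were a pseudocount of 0.1, a mean of at least 1 FPKM, quantile normalization, the residual spread of all 99 strains, mapping or tissue-marker covariates, the Kruskal-Wallis test, other limits for off and on, and leaving out I/LnJ or each replicate. Leaving out PL/J or 129X1/SvJ replicate 3, and a ratio of 2 between nearest mice, were added after the data had been seen.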

Additional observations from a re-analysis of the deposited data

How the results depend on the processing

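The count of genes differing among strains fell from 8708 to 5326 with the Kruskal-Wallis test, and to between 3571 and 6287 when replicate 1, 2 or 3 was left out of every strain. Single-strain calls then rose from 192 to between 278 and 334, of which 167 to 186 were calls of the full data, and the median number of genes called per pair of strains fell from 1193.5 over all 300 pairs to between 503.5 and 773.5. These fits had 1 or 2 mice per strain. With a ratio of at least 2 in FPKM between nearest mice in place of a difference of 1 on the log2 scale, 64 calls were left, 57 of them calls of the full data. Genes off in 1 strain and on in 24 numbered 9 with limits of 0.3 and 0.5 FPKM and 0 with limits of 0.01 and 2 FPKM, against 1. Under the other settings the counts stayed within 1.5 times: 6728 to 8743 genes, 180 to 284 single-strain calls and a median share of at most 0.310. Without 129X1/SvJ replicate 3 there were 8611 genes and 194 calls, and without PL/J 8526 genes, 192 calls, a median of 1199 genes per pair and a share of 0.301. All 120 values of named genes under alternatives kept their direction and an adjusted p under 0.05, but Mttp in PL/J without replicate 2 differed by -0.75, short of the difference of 1 that a call needs. No paired analysis was possible because the labels give mice of different strains no shared replicate numbers. FPKM carry no counts, so levels near 0 have no counting interval.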

Other observations

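Glial and clock genes not described above also varied between strains. Glul, the glutamine synthetase of astrocytes, averaged 244 FPKM in DBA/2J at the lowest and 472 in C57BL/6J at the highest (limma, adjusted p = 2.03e-11). Mobp, a protein of the myelin sheath, ran from 175 in LG/J to 441 in C57BLKS/J (limma, adjusted p = 6.40e-09). The clock repressor Cry2 had a strain share of 0.627 within a narrow range of means, from 28.3 in C57L/J to 35.5 in I/LnJ. The immediate early gene Jun ran from 10.9 in BALB/cJ to 20.4 in the single I/LnJ mouse. Hba-a2, a globin gene with near-identical relatives, had a mean of 0 in CE/J, I/LnJ and CBA/J and of 10.8 in C57L/J.

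Among the 56 loci without a symbol that were called in a single strain, 37 had no transcript in the deposited assembly and thus no position, 15 overlapped a pseudogene of GENCODE M21 and 3 overlapped none of its genes. XLOC_022097 on chromosome 2 (157528312 to 157528976), over the pseudogene Gm14287, had the largest difference of all calls: LG/J averaged 114 FPKM and 129X1/SvJ, the next strain, 56.4. XLOC_032325 on chromosome 7 (3181068 to 3181973), over the pseudogene Gm3375, had low means in C57BL/6J, C57BLKS/J and C57L/J, as XLOC_004091 did. Neat1, a long non-coding RNA that builds nuclear paraspeckles, was low in CBA/J and DBA/2J. 9030407P20Rik was higher in A/J, at 6.34, 6.91 and 8.27, and lower in BUB/BnJ, at 0.397, 0.323 and 0.232, than in every other mouse.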
